A study of Mus musculus with 6 samples.

Results

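S phase and DNA replication was described through 39 genes, all of which were among the 24493 genes of the deposited table. They were chosen by name, as genes known to act in origin licensing, at the replication fork, in nucleotide supply and in entry into S phase, with earlier results of these data known. Bulk RNA sequencing was available for 6 libraries of sorted pancreatic tumor cells of the mouse line 6419c5, implanted under the skin, with C57BL/6 as the strain. Control tumors, of which the labels give no other detail, gave 4 libraries, and 2 were from tumors given GAFCP, which joins the drugs gemcitabine and abraxane to a CD40 agonist and to blockade of both PD-1 and CTLA-4. Gemcitabine, a cytidine analog, stops DNA chains from growing, while abraxane carries paclitaxel, which stabilizes microtubules. The labels name neither doses and times nor the sort marker, and nothing in them ties a library to its own animal. P-values therefore reflect only how far these libraries vary, and that variation may be technical. The comparison asked how expression in the tumor cells differed with treatment.

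A cell copies its DNA once per division by loading the MCM2-7 helicase at origins in G1 phase, with the help of the origin recognition complex, Cdc6 and Cdt1, and by turning it on in S phase together with Cdc45 and the GINS complex. Polymerases then extend both strands behind the helicase, held by the sliding clamp PCNA, while ribonucleotide reductase and thymidylate enzymes supply the nucleotides. E2F transcription factors and cyclin E drive the step from G1 into S phase, and many replication genes are textbook targets of E2F.

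Values are TPM, which is transcript abundance per length as a share of the library, so levels can be compared between genes. Log2 changes are GAFCP minus control on log2(TPM + 1), a scale that understates the change of genes with low TPM. A gene was called at a limma adjusted p under 0.05, adjusted over all 13720 genes tested, and "rose" and "fell" are used only of called genes. Sequencing depth is unknown, since TPM keeps no depth.

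Replication genes were mostly higher with GAFCP, by small amounts. Of the 39 genes, all of which passed the filter on low values, 25 rose, 1 fell and 13 were not called. Among all genes tested 19.0% rose and 28.5% fell, against 64.1% and 2.56% of the replication genes. Their median log2 change was 0.30, where that of all genes tested was -0.07, and no replication gene reached a log2 change of 1 in either direction, as 1115 of all genes tested did. Both GAFCP libraries lay above every control library for 30 of the genes (24.7% of all genes tested), below every control for 1 (36.9% of all genes tested), and within or across the control range for 8. Among all genes tested 61.6% had groups that did not overlap, in either direction. Summed over the 39 genes the level was 1157 to 1222 TPM in the control libraries and 1437 and 1429 TPM in GAFCP libraries 1 and 2. In bulk RNA, more cells in S phase and more of these RNAs per cell cannot be told apart.

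These counts depended on both GAFCP libraries. With either left out, fewer genes were called, both among the 39 and over all genes tested. The median log2 change of the 39 was 0.30 without GAFCP library 1 and 0.27 without GAFCP library 2. In those fits the remaining GAFCP library was assumed to vary as the controls did. With control libraries 1 and 2 left out the number that rose was 24, and with 3 and 4 left out it was 22. Scaling by the median of ratios gave 31 higher and 1 lower, and moved the share of higher calls among all called genes from 40.0% to 50.2%.

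**Figure D1:**
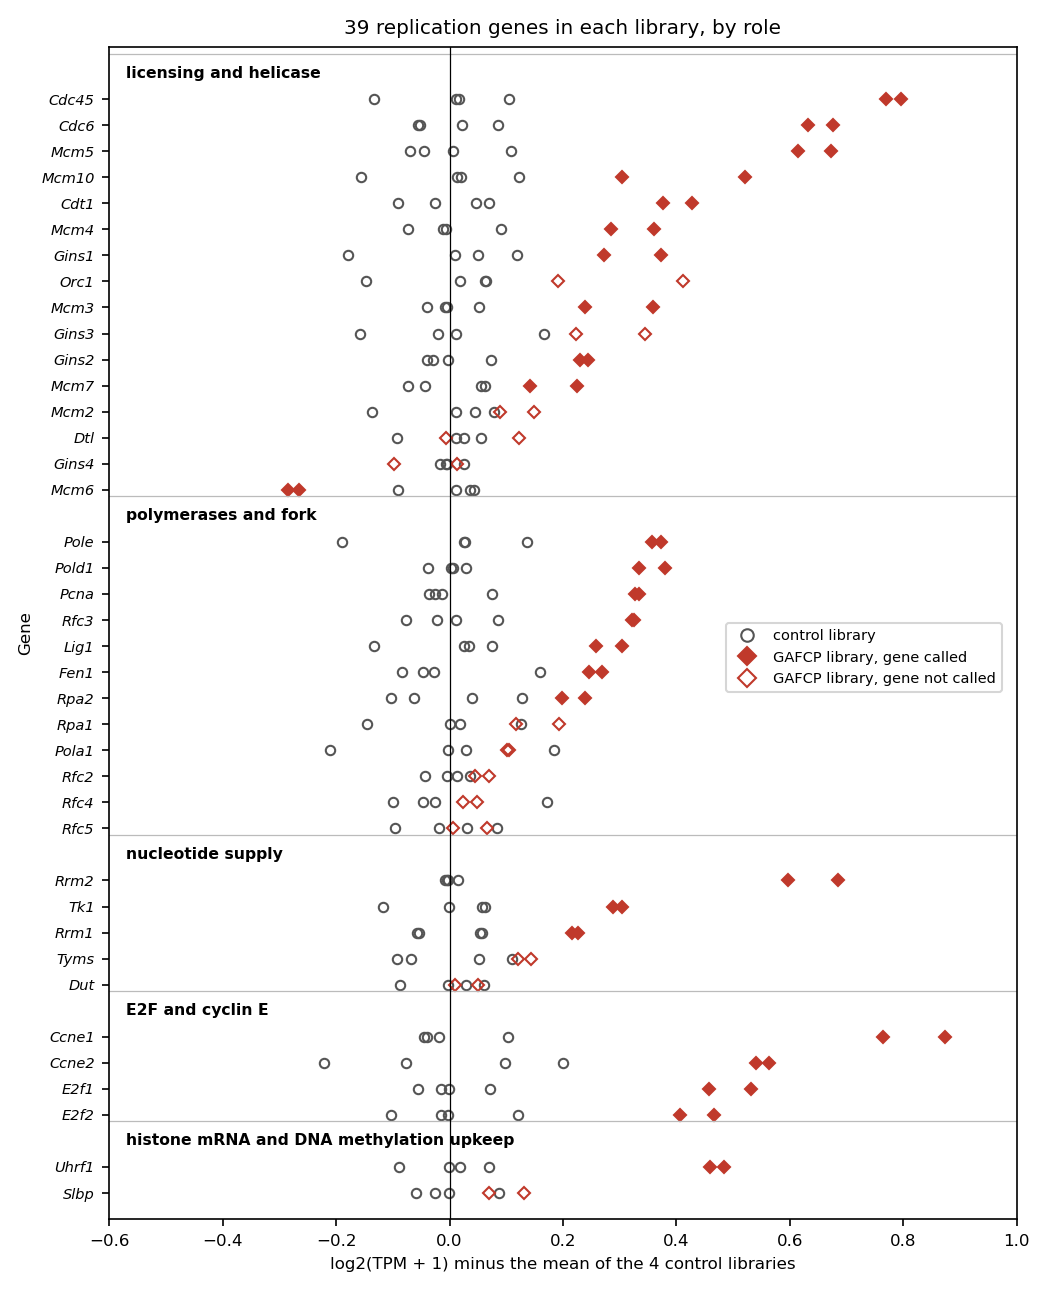
Each row is a gene, grouped by role, and each point is a library, placed by its log2(TPM + 1) minus the mean of the 4 control libraries (circles, control; diamonds, GAFCP, filled where the gene was called). The GAFCP points lie to the right of every control point for 30 genes, and Mcm6 is the gene with both GAFCP points to the left.

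The labelled cells were checked through markers. The epithelial keratin genes Krt8, Krt18 and Krt19 were between 1010.2 and 2401 TPM in every library, while Epcam, an epithelial adhesion gene, was 12.5 to 13.1 TPM in controls against 1.68 and 1.39 TPM with GAFCP. Of 8 epithelial markers 5 fell and 1 rose, and their summed level went from 6696 to 7073 TPM in controls to 5104 and 5134 TPM with GAFCP. Markers of other cells moved with the treatment in the same libraries as the replication genes. All 14 macrophage markers rose (1585 to 1690 TPM summed in controls, 6142 to 6206 TPM with GAFCP), as did all 10 pan-leukocyte markers (109.7 to 130.0 and 330.1 to 341.6 TPM) and all 9 tested of 12 T and NK cell markers (5.89 to 8.06 and 38.9 to 43.1 TPM). Of 6 neutrophil markers tested 4 rose (35.6 to 41.1 and 107.6 to 117.2 TPM), and of 9 fibroblast markers tested 6 rose and 1 fell (209.8 to 232.0 and 328.9 to 329.1 TPM). Among 4 endothelial markers tested 1 rose and 2 fell (26.5 to 31.0 and 20.2 to 21.98 TPM), and none of 3 erythroid markers tested was called (74.4 to 88.5 and 85.1 to 94.1 TPM), with Hbb-bs at 0 in every library. The part of these cells in the replication results was not tested.

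Origin licensing and the helicase held the widest range of changes. Of 16 genes 10 rose and 1 fell, with a median log2 change of 0.30. As shares these were 62.5% and 6.25%, beside 19.0% and 28.5% of all genes tested. Cdc45, which joins the loaded MCM2-7 ring to make the active helicase (chromosome 16, 18780447 to 18811987, GRCm38), was 15.4, 15.5, 13.9 and 16.5 TPM in control libraries 1 to 4 and 26.8 and 27.3 TPM in GAFCP libraries 1 and 2. The groups did not overlap, and Cdc45 rose by 0.78 ± 0.07 on the log2 scale (SE, limma adjusted p = 8.2e-05). Cdc6, an ATPase that loads the helicase (chromosome 11, 98907801 to 98923940), was 3.82, 3.37, 3.38 and 3.61 TPM in controls against 6.03 and 6.26 TPM with GAFCP. It rose by 0.65 ± 0.09 (SE, limma adjusted p = 0.00058), again with no overlap between the groups. Cdt1, its partner in loading, rose from 33.0 ± 1.71 (SD, n = 4) to 43.9 ± 1.13 TPM (SD, n = 2). Mcm10, an initiation factor that helps activate the helicase, was 5.67, 5.64, 4.91 and 6.17 TPM in controls against 8.45 and 7.12 TPM with GAFCP (log2 change 0.41 ± 0.10, SE, limma adjusted p = 0.014). The rise of Mcm10 was not called without GAFCP library 1 (limma adjusted p = 0.13). Orc1, the largest subunit of the origin recognition complex, had a mean of 2.45 TPM in controls, against 3.26 TPM with GAFCP, and was not called (limma adjusted p = 0.068), although both GAFCP libraries were above every control. It was called with median-of-ratios scaling and with quantile normalization (limma adjusted p = 0.024 and 0.040). Dtl, an adaptor of the ubiquitin ligase that destroys Cdt1 in S phase, was 5.61 to 6.32 TPM in controls against 6.67 and 6.02 TPM with GAFCP, an overlap between the groups.

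The 6 subunits of the MCM2-7 ring, which assemble in equal number, did not move alike. Mcm5 (chromosome 8, 75109569 to 75128439) was 28.1, 31.3, 27.6 and 29.2 TPM in controls against 44.9 and 46.8 TPM with GAFCP. It rose by 0.64 ± 0.06 (SE, limma adjusted p = 9.3e-05), with every GAFCP value above every control. Mcm6 (chromosome 1, 128331590 to 128359664) was 71.9, 73.2, 66.9 and 73.5 TPM in controls against 59.2 and 58.4 TPM with GAFCP. It was the gene of the 39 that fell, by 0.27 ± 0.05 on the log2 scale (SE, limma adjusted p = 0.0026), and it is singled out here after its values were seen. In all 17 alternative settings Mcm6 was called lower, with limma adjusted p from 0.00045 to 0.028. Mcm3 rose from 35.7 ± 0.978 to 44.2 ± 2.65 TPM, Mcm4 from 30.6 ± 1.496 to 38.6 ± 1.47 TPM and Mcm7 from 68.9 ± 3.34 to 78.4 ± 3.21 TPM (SD, n = 4 and 2). Mcm2 was 47.1, 45.0, 40.4 and 46.0 TPM in controls against 49.5 and 47.5 TPM with GAFCP, and was not called (log2 change 0.12 ± 0.07, SE, limma adjusted p = 0.18), though it was with median-of-ratios scaling (limma adjusted p = 0.016). The call of Mcm7 was lost in 4 of 17 alternatives, which were the fits with either GAFCP library left out, without control library 1 and with control libraries 3 and 4 alone (limma adjusted p up to 0.19).

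In levels, Mcm6 was the highest subunit and Mcm5 the lowest in every control library, the first 2.33 to 2.56 times the second. With GAFCP the highest was Mcm7 and the lowest Mcm4, at 2.03 and 2.04 times, and the ratio of Mcm6 to Mcm5 was 1.32 and 1.247. These ratios were chosen after the values were seen and were not tested. The GINS complex, whose 4 subunits also assemble in equal number, spread more widely in level, from Gins3 at 3.63 to 4.80 TPM to Gins4 at 54.4 to 56.1 TPM in controls. Gins2 rose from 45.9 ± 1.68 to 54.2 ± 0.406 TPM and Gins1 from 14.2 ± 1.31 to 17.9 ± 0.930 TPM (SD, n = 4 and 2). The call of Gins1 was lost in 4 of 17 alternatives, among them the fits with either GAFCP library left out (limma adjusted p up to 0.14). Gins4 was 54.4, 54.8, 54.9 and 56.1 TPM in controls against 55.5 and 51.3 TPM with GAFCP, and was not called (limma adjusted p = 0.47), its log2 change of -0.04 turning to 0.02 with median-of-ratios scaling. Gins3 was also not called (log2 change 0.28 ± 0.11, SE, limma adjusted p = 0.066), though it was in 4 alternatives: median-of-ratios scaling, quantile normalization, robust moderation and without control library 2 (limma adjusted p from 0.016 to 0.047).

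**Figure D2:**
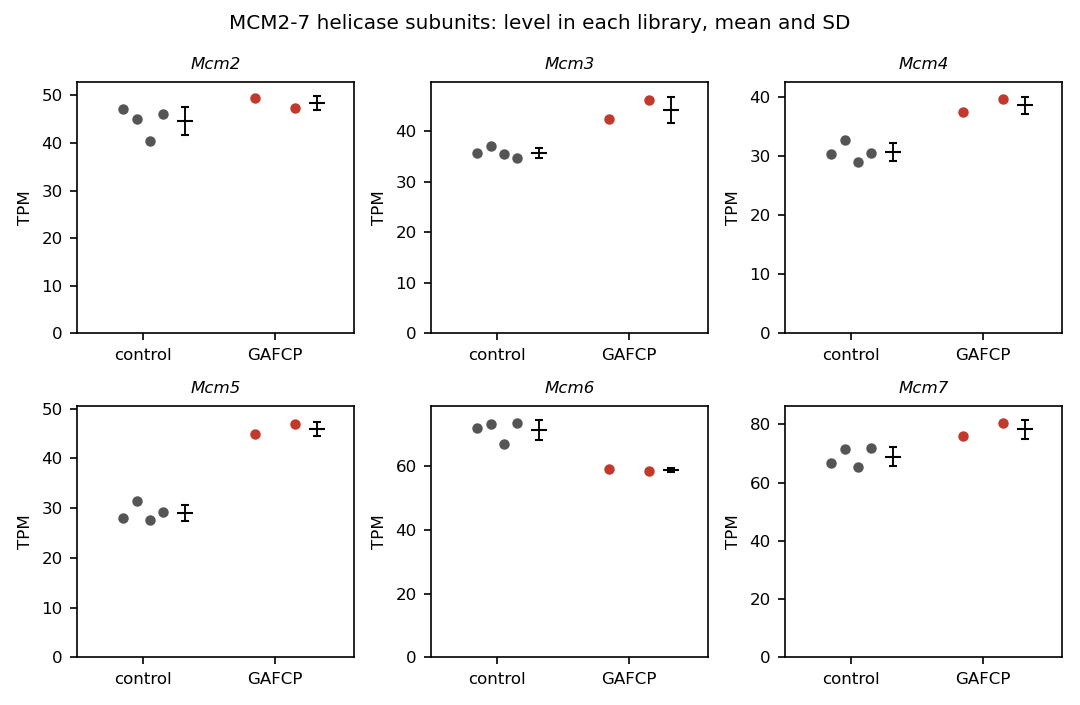
The level in TPM of each MCM2-7 subunit in every library (points), with the mean and SD of each group beside them, and axes that start at 0. Mcm5 shows the largest rise, from 29.0 to 45.9 TPM on average, and Mcm6 the fall, from 71.4 to 58.8 TPM.

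Since many replication genes are textbook targets of E2F, promoters were searched for its motif, spelled TTTCCCGC, TTTCGCGC, TTTGCCGC or TTTGGCGC, on both strands. The window ran from 250 bases before to 50 after each RefSeq start site (GRCm38.p6), and a promoter was found in the table for 32 of the 39 genes. The others were Mcm4, Gins1, Gins2, Gins4, Pole, Rfc2 and Ccne2. Of these 32 genes 15 (46.9%) held the motif in at least 1 promoter, against 467 of 10399 tested genes with a promoter (4.49%) and 744 of all 32841 promoters (2.27%). The motif was held by 10 of 20 genes that rose, by 4 of 11 not called and by Mcm6, which fell. Among the other lists it was held by 10 of 35 other replication genes, 7 of 21 G1/S regulators, 1 of 21 G2/M genes and 0 of 12 nucleotide genes. The CCAAT box, spelled CCAAT, was held by 20 of the 32 genes (62.5%), against 43.1% of the tested genes and 37.4% of all promoters. It was held by 17 of 21 G2/M genes, 18 of 35 other replication genes, 11 of 21 G1/S regulators and 5 of 12 nucleotide genes. A match describes the letters only, and binding was not measured. Genes known as E2F targets may hold the motif often whatever their change, and a link between motif and change was not tested.

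The 250 bases before the RefSeq start sites of Mcm5, Mcm6 and Cdc6 are shown. They set a gene with a large rise, the gene that fell and a licensing factor side by side. The Cdc6 stretch lies inside the gene position printed for Cdc6, which is from GENCODE, as does the window searched for E2f1. Windows of Dut, E2f2, Lig1, Mcm7 and Uhrf1 also lie inside their GENCODE genes. The matches counted for Lig1, Mcm7 and Uhrf1 are in such windows. Start sites of RefSeq and GENCODE thus differ for some genes. Each stretch shown is read 5′ to 3′ on the strand of the gene, with E2F motif letters of either strand in capitals. Mcm5 lies on the plus strand at chr8:75109259-75109508, Mcm6 on the minus strand at chr1:128359706-128359955 and Cdc6 on the plus strand at chr11:98907901-98908150.
Mcm5: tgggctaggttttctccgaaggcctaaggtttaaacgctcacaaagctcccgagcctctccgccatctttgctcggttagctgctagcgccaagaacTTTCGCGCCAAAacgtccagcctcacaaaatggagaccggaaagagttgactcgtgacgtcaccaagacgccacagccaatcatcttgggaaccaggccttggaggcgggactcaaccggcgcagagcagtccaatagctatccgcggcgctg
Mcm6: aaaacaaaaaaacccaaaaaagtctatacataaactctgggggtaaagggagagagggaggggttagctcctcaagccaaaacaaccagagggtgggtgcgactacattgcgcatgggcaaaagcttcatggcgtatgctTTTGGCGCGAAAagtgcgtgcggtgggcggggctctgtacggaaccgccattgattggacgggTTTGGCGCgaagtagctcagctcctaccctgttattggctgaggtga
Cdc6: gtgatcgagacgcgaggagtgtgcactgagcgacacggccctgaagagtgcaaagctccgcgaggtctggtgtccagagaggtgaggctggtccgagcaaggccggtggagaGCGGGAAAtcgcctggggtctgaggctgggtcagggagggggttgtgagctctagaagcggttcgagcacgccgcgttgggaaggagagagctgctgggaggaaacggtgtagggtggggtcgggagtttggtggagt
In Mcm5 the capitals are 2 matches that overlap on opposite strands, starting 153 and 149 bases before the start site. Mcm6 holds such an overlapping pair 110 and 106 bases before its start site and another match 47 bases before it. Cdc6 has 1 match on the minus strand, 138 bases before the start site. Mcm6, which fell, thus holds E2F motif letters, as Mcm5 and Cdc6 do. No match was found in the windows of Ccne1, Cdc45 and Rrm2, which says only that these letters are not there.

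Of the 12 genes for polymerases, the clamp and other fork proteins 7 (58.3%) rose and none fell. Over all genes tested 19.0% rose and 28.5% fell. The median log2 change of the 12 genes was 0.24 and the highest 0.37. With either GAFCP library left out the number that rose was 3. Pole, the catalytic subunit of the leading-strand polymerase (chromosome 5, 110286306 to 110337474), was 6.53, 5.98, 5.01 and 5.98 TPM in controls against 7.78 and 7.88 TPM with GAFCP. It rose by 0.37 ± 0.10 (SE, limma adjusted p = 0.019), a call lost with either GAFCP library left out (limma adjusted p up to 0.10). Pold1, the catalytic subunit of polymerase delta on the lagging strand (chromosome 7, 44532746 to 44548849), was 23.7, 24.1, 23.0 and 23.7 TPM in controls against 31.0 and 30.1 TPM with GAFCP. Its groups did not overlap and it rose by 0.36 ± 0.05 (SE, limma adjusted p = 0.00063). Pola1, the catalytic subunit of the polymerase that starts each new strand, was 3.82 to 5.34 TPM in controls against 4.98 and 4.998 TPM with GAFCP, inside the control range.

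Pcna, the sliding clamp (chromosome 2, 132249162 to 132253314), had the highest level of the 39 genes. It was 144, 155, 146 and 145 TPM in controls against 186 and 185 TPM with GAFCP, and rose by 0.33 ± 0.04 (SE, limma adjusted p = 0.00040). Of the clamp loader subunits Rfc2 to Rfc5, which open the PCNA ring, Rfc3 was called and the others were not, also under each other scaling tried. Rfc3 was 39.9, 37.9, 35.6 and 37.0 TPM in controls against 47.4 and 47.2 TPM with GAFCP (log2 change 0.32 ± 0.05, SE, limma adjusted p = 0.0019). Rfc2 was 48.2, 50.3, 49.6 and 51.0 TPM in controls against 51.3 and 52.3 TPM with GAFCP (log2 change 0.06 ± 0.04, SE, limma adjusted p = 0.30). Rfc4 and Rfc5 had log2 changes of 0.04 each, with overlapping groups, and whether Rfc3 differs from the other subunits in its change was not tested.

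Rpa1, the large subunit of the complex that coats single-stranded DNA, was 37.9, 41.4, 34.1 and 38.3 TPM in controls against 43.4 and 41.1 TPM with GAFCP, and the groups overlapped (limma adjusted p = 0.13). It was called with median-of-ratios scaling and with quantile normalization, and also without control library 2 (limma adjusted p down to 0.0088). Its partner Rpa2 rose from 21.9 ± 1.66 to 25.6 ± 0.547 TPM (SD, n = 4 and 2, limma adjusted p = 0.041), a call lost in 8 of 17 alternatives, among them the fit without any 1 of control libraries 1, 3 or 4 or of the GAFCP libraries (limma adjusted p up to 0.19). Fen1, which trims the flaps of Okazaki fragments, and Lig1, which seals them, rose by 0.26 and 0.28 on the log2 scale (SE 0.07 each). Fen1 was not called with control library 1, control library 4 or either GAFCP library left out, nor Lig1 with either GAFCP library left out (limma adjusted p up to 0.12 and 0.082).

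Nucleotide supply was led by 1 gene. Rrm2, the small subunit of ribonucleotide reductase that makes deoxynucleotides from ribonucleotides (chromosome 12, 24708241 to 24714146), was 72.8, 71.8, 71.9 and 71.6 TPM in controls against 116 and 109 TPM with GAFCP. Its control libraries had the smallest relative spread of the 39 genes (coefficient of variation 0.742%), and Rrm2 rose by 0.64 ± 0.04 (SE, limma adjusted p = 9.1e-06). Rrm1, the large subunit and a known target of gemcitabine (chromosome 7, 102441695 to 102469771), was 29.2, 26.9, 27.0 and 29.2 TPM in controls against 32.8 and 33.0 TPM with GAFCP. It rose by 0.22 ± 0.06 (SE, limma adjusted p = 0.013), a call lost with either GAFCP library left out (limma adjusted p up to 0.084). The ratio of Rrm2 to Rrm1 was 2.49, 2.67, 2.66 and 2.45 in controls and 3.55 and 3.32 with GAFCP, so that both GAFCP values lay above every control. That ratio was chosen after the values were seen and was not tested.

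Tk1, the cytosolic kinase that salvages thymidine in S phase (chromosome 11, 117815526 to 117826092), was 52.8, 57.3, 59.7 and 59.95 TPM in controls against 70.3 and 71.1 TPM with GAFCP. It rose by 0.30 ± 0.06 (SE, limma adjusted p = 0.0041). Tyms, which makes thymidylate, was 14.5, 16.8, 14.8 and 16.1 TPM in controls against 17.3 and 17.0 TPM with GAFCP. Its log2 change of 0.13 ± 0.07 was not called (SE, limma adjusted p = 0.18), and both GAFCP libraries were only just above the highest control. Tyms was called with median-of-ratios scaling and quantile normalization (limma adjusted p = 0.029 and 0.034). A pseudogene named Tyms-ps is also in the table, and how reads were divided between them was not examined. Dut, which keeps uracil out of DNA by splitting dUTP, was 25.1, 25.7, 26.3 and 23.6 TPM in controls against 25.3 and 26.1 TPM with GAFCP. The Dut values of both groups overlapped (log2 change 0.03 ± 0.06, SE, limma adjusted p = 0.69).

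All 4 genes of the E2F and cyclin E group rose, beside 19.0% of all genes tested, with a median log2 change of 0.52. Without GAFCP library 2 the number that rose was 2, and with a filter at a mean of at least 5 TPM, which left Ccne1 and E2f1, it was also 2. Ccne1, a cyclin that activates the kinase Cdk2 at the G1 to S step (chromosome 7, 38097984 to 38107534), was 7.17, 7.31, 8.04 and 7.19 TPM in controls against 14.4 and 13.3 TPM with GAFCP. That was the largest rise of the 39 genes, 0.82 ± 0.08 (SE, limma adjusted p = 7.9e-05), or 1.87 times the control mean in TPM. Ccne2, the related cyclin, was 2.76, 3.03, 2.01 and 2.33 TPM in controls against 4.19 and 4.10 TPM with GAFCP (log2 change 0.55 ± 0.13, SE, limma adjusted p = 0.012). Its controls had the largest relative spread of the 39 genes (coefficient of variation 17.9%), and the call was lost with either GAFCP library left out (limma adjusted p up to 0.074).

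E2f1, an activating E2F factor (chromosome 2, 154559407 to 154569892), was 12.2, 12.9, 12.1 and 11.7 TPM in controls against 17.1 and 18.1 TPM with GAFCP. It rose by 0.49 ± 0.06 (SE, limma adjusted p = 0.00045), with no overlap. E2f2, a second activator, was 3.78, 4.20, 3.46 and 3.73 TPM in controls against 5.34 and 5.61 TPM with GAFCP (log2 change 0.44 ± 0.09, SE, limma adjusted p = 0.0064), and was not called without GAFCP library 2 (limma adjusted p = 0.062).

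**Figure D3:**
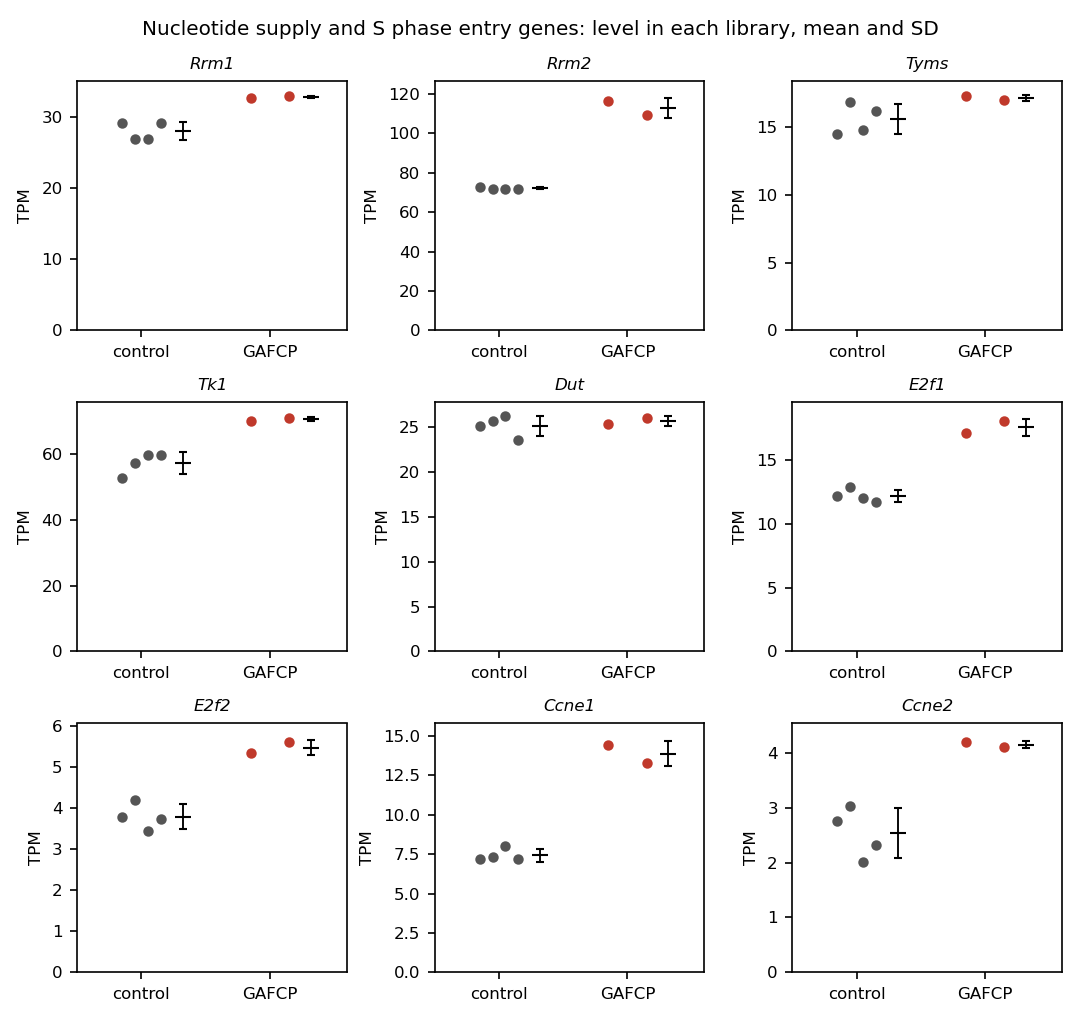
The level in TPM of the nucleotide supply genes and of the E2F and cyclin E genes in every library (points), with the mean and SD of each group, on axes that start at 0. Rrm2 goes from 72.0 to 113 TPM and Ccne1 from 7.43 to 13.9 TPM on average, while the Dut points of both groups overlap.

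The remaining genes act on histone mRNA and in the upkeep of DNA methylation. Uhrf1, which brings the maintenance DNA methyltransferase to newly copied DNA (chromosome 17, 56303321 to 56323486), was 35.2, 34.8, 32.6 and 36.5 TPM in controls against 49.0 and 48.2 TPM with GAFCP. It rose by 0.47 ± 0.05 (SE, limma adjusted p = 0.00026). Slbp, which binds the stem-loop of histone mRNAs, was 35.8, 39.8, 37.3 and 36.7 TPM in controls against 39.3 and 41.0 TPM with GAFCP, an overlap, and was not called (limma adjusted p = 0.17), though it was with median-of-ratios scaling (limma adjusted p = 0.031).

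Exons of 13 of the 39 genes overlap those of a gene on the opposite strand in GENCODE M21, and the sources used here do not say whether reads were assigned by strand, so these levels are uncertain. Among the genes that rose these were Cdc45 (Ufd1), Ccne2 (Ints8), Tk1 (Afmid), Mcm7 (Ap4m1 and Cops6), Fen1 (Tmem258 and Gm10143), Gins2 (Gse1), Lig1 (Zswim9) and Pole (Gm15792). Of the 11 overlapping partners of all 13 genes that were tested, 0 rose and 3 fell, where 19.0% and 28.5% of all genes tested did. How far reads of these partners enter the levels was not tested.

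Other genes that act in replication were also looked at. Of 40 such genes 25 rose and 1 fell, with a median log2 change of 0.29. Those were 62.5% and 2.5% of the list, beside 19.0% and 28.5% of all genes tested. The number that rose was 15 with either GAFCP library left out, and the number that fell was 3 without control library 3. Wdhd1, which couples the helicase to polymerase alpha, rose from 5.03 to 8.38 TPM, Pold4, a small subunit of polymerase delta, from 88.6 to 134 TPM, Chtf18, part of another clamp loader, from 11.4 to 16.2 TPM and Prim1, the primase, from 19.1 to 26.7 TPM. Gmnn, the inhibitor of Cdt1, rose from 25.7 to 32.4 TPM beside the rise of Cdt1, and Dnmt1, the maintenance methyltransferase, from 28.4 to 36.5 TPM. The gene that fell was Orc5, a subunit of the origin recognition complex, from 14.5 to 11.4 TPM (log2 change -0.33 ± 0.07, SE, limma adjusted p = 0.0051). Gmnn, Dnmt1 and Orc5 were named after their values were seen.

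Nucleotide genes outside the 39 moved both ways. Of 14 such genes 3 rose and 5 fell, with a median log2 change of -0.07, the same as over all genes tested. Those were 21.4% and 35.7% of the list, beside 19.0% and 28.5% of all genes tested. The number that rose was 6 with median-of-ratios scaling and with quantile normalization, and the number that fell was 3 without GAFCP library 1. Samhd1, which degrades deoxynucleotides and is known as an interferon-induced gene, was 40.5, 40.0, 36.0 and 38.2 TPM in controls against 138 and 136 TPM with GAFCP, a rise of 1.80 ± 0.06 (SE, limma adjusted p = 1.8e-07). Macrophages also express Samhd1, and their markers rose in the same libraries, but their part in the rise of Samhd1 was not tested. Cad, the first enzyme of pyrimidine synthesis, rose from 23.7 to 29.7 TPM. Paics, of purine synthesis, changed by -0.42 and Dguok, a mitochondrial deoxyguanosine kinase, by -0.35, both lower. Dck, which activates gemcitabine inside the cell, was 14.2 to 18.8 TPM in controls against 18.8 and 19.9 TPM with GAFCP and was not called (limma adjusted p = 0.13), though it was with median-of-ratios scaling, quantile normalization and control libraries 3 and 4 alone (limma adjusted p = 0.026, 0.029 and 0.030). Dck was named after its values were seen.

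Regulators of the G1 to S step were also divided. Of 28 genes, 27 of which were tested, 6 rose and 8 fell, with a median log2 change of -0.03. Those were 22.2% and 29.6% of the list, near the 19.0% and 28.5% of all genes tested. The number that rose was 12 with median-of-ratios scaling and 11 with quantile normalization. Over all genes tested it also went up, from 2606 to 3449 and 3001. Cdkn1a, which encodes the kinase inhibitor p21, was 25.2, 29.4, 24.3 and 24.5 TPM in controls against 92.5 and 94.4 TPM with GAFCP, a rise of 1.82 ± 0.08 (SE, limma adjusted p = 1.2e-06). Cdkn2b, which encodes the inhibitor p15, changed by -0.89, Ccnd2 by -0.76 and Ccnd1 by -0.57, all lower. Ccnd1 averaged 214 and 144 TPM and Ccnd2 68.4 and 39.8 TPM in control and GAFCP libraries. The third D cyclin, Ccnd3, rose from 78.9 to 100.3 TPM, and Rb1, the repressor of E2F, from 6.91 to 9.46 TPM, the latter not called without GAFCP library 2 (limma adjusted p = 0.17). Inhibitors of cyclin-dependent kinases were therefore both higher and lower in the libraries in which E2f1 and Ccne1 were higher. Ccnd3 and Rb1 were named after their values were seen.

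The G2/M and mitosis genes, the list closest to replication in the cell cycle, moved both ways. Of 25 genes 7 rose and 6 fell, with a median log2 change of 0.09. Those were 28% and 24% of the list, beside 19.0% and 28.5% of all genes tested. Both GAFCP libraries lay above every control for 14 of the 25 G2/M genes and below every control for 6. For the 39 replication genes these numbers were 30 and 1, and over all genes tested the shares were 24.7% and 36.9%. Of the 39 replication genes 25 rose and 1 fell, with a median of 0.30. The number of G2/M genes that rose was 13 with median-of-ratios scaling and 11 with quantile normalization, and whether the lists differ was not tested. Top2a, the topoisomerase that untangles copied chromosomes, rose from 35.6 to 65.3 TPM and Cdk1, the mitotic kinase, from 16.7 to 26.2 TPM. Ccnb2, a mitotic cyclin, changed by -0.57 and Kif23, a kinesin of cell division, by -0.54, both lower. Mki67, a general marker of cycling cells, was 16.2, 16.1, 12.9 and 15.9 TPM in controls against 18.0 and 17.5 TPM with GAFCP and was not called (limma adjusted p = 0.11), though it was without control library 3, with median-of-ratios scaling and with quantile normalization (limma adjusted p = 0.034, 0.015 and 0.014). Mki67 was named after its values were seen.

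**Figure D4:**
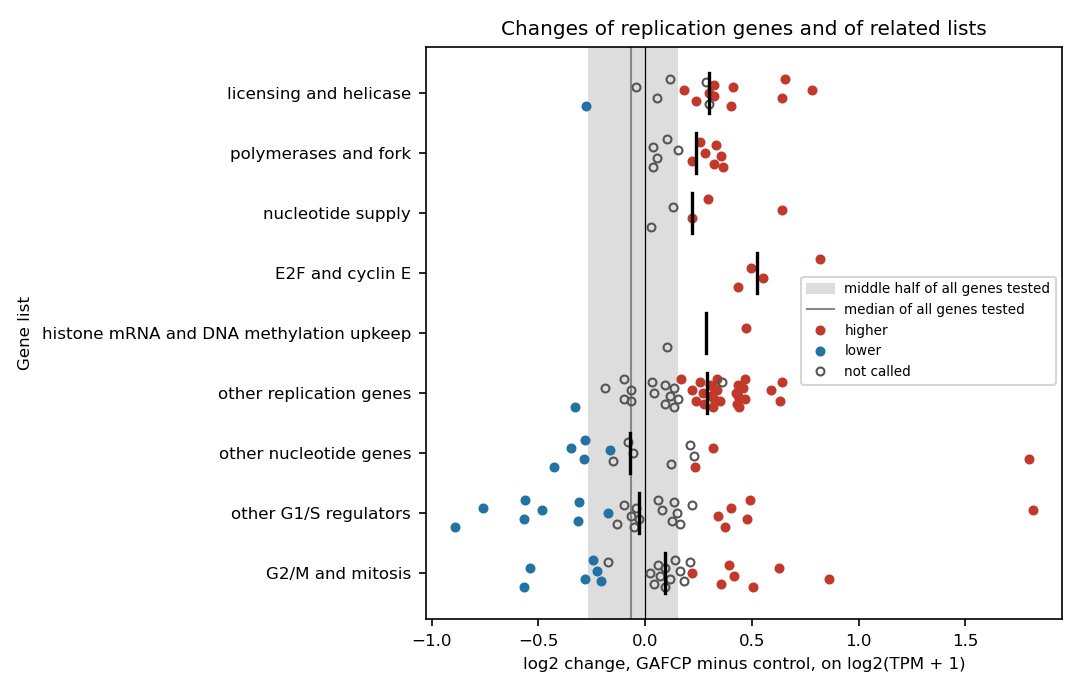
Log2 change of each gene (points; red, higher; blue, lower; open, not called) in the 5 roles of the replication genes and in 4 related lists, with the median of each list as a black bar, and with the interquartile range and median of all genes tested as a grey band and line. The role medians lie between 0.22 and 0.52, while those of the nucleotide, G1/S and G2/M lists lie between -0.07 and 0.09.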

How the data were processed

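A company prepared and sequenced the libraries from RNA of the sorted tumor cells, per the labels' protocols. The authors deposited 1 table of TPM, with 24493 genes and 6 libraries; Salmon and mm10 are named, per the submitters' processing notes. Not given in the sources used here: the Salmon version, its transcript annotation and its use of strand. TPM is a share of the library, so a change in abundant genes shifts all others. Sample titles gave the groups and library numbers.

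The 13720 genes that reached 1 TPM in 2 or more libraries were tested on log2(TPM + 1). The test was the moderated one of limma 3.58.1 (R 4.3.3), with variance trended on the mean and 4 residual degrees of freedom, and Benjamini-Hochberg adjustment ran over all of them. The fit was tested on simulated data. TPM values allow no count test.

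The genes and lists were chosen with earlier results of these data known. Values in every library are given for up to 4 called genes of each role with the largest change, up to 2 not called with the highest level, and all nucleotide supply, E2F and cyclin E genes. Of each related list up to 4 called genes are named, those with the largest change among genes averaging 5 TPM or more. Others are said to be named after their values were seen. Positions span whole genes in GENCODE M21 (GRCm38, the assembly also called mm10), and promoters are from RefSeq (GRCm38.p6).

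There were 17 alternative settings. These were a pseudocount of 0.1 or 5, other filters and scalings, changes to the variance model, the block and the control libraries used, and leaving out each library.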

Additional observations from a re-analysis of the deposited data

Results flagged for a closer look

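Of 62 named genes whose 4 control libraries were compared, 4 had a control library that stood apart from the other 3. Chance gives about 1 in 20, so the number is near that share. Each time it was control library 3, which was the lowest control for 56.6% of all genes tested. Ccne1 was 8.04 TPM there, against 7.17 to 7.31 TPM in the other controls, and still below both GAFCP libraries. Pold4 was 98.1 TPM there, also above the other controls, the next of which was 86.0 TPM. Cad was low there at 22.2 TPM, with 24.1 TPM the next lowest, and Mki67 was low at 12.9 TPM, with 15.9 TPM the next lowest.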

How the results depend on the processing

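The 25 replication genes that rose and the 1 that fell were counted again under 17 settings. With each library left out in turn, 16 to 27 rose, and over all genes 2514 to 4641 were lower and 1715 to 2610 higher, beside 3909 and 2606. Mcm6 was the gene that fell in every setting. The median log2 change of 0.30 became 0.24 with a pseudocount of 5 and 0.35 with median-of-ratios scaling. Of 657 log2 changes of single replication genes under these settings 607 kept their direction and their side of the threshold, 34 were no longer called, 13 became called and 3 turned. The last were Gins4, at 0.020 with median-of-ratios scaling and between -0.099 and 0.013 with a library left out, and Dtl, between -0.0062 and 0.12 with a library left out. The causes were not tested. At a mean of at least 5 TPM 33 of the 39 genes were tested and 22 rose.

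Controls and GAFCP libraries share the numbers 1 and 2, but the labels do not say that a number marks a shared animal or day. Deviations from the group means correlated across genes at -0.01 and -0.02 between libraries of the same number. With 2 GAFCP libraries the deviations of 1 are the exact opposite of the other's. These values therefore cannot show whether a number marks a shared animal or day. With the replicate number as a block 20 replication genes rose and 1 fell, and over all genes 2128 were higher and 3766 lower. No GAFCP library has the number 3 or 4, so the changes in that fit rest on control libraries 1 and 2. The median log2 change of the replication genes was 0.27 there and with control libraries 1 and 2 alone. For the size of the changes these settings are therefore not separate checks. Depth is unknown, which leaves the spread between libraries as the only measure of precision.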

Other observations

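Control library 3 was the lowest of the 4 controls for 19 of the 39 replication genes (48.7%) and for 56.6% of all genes tested. The median deviation of the replication genes from the control mean was -0.05 on the log2 scale in that library. It was at most 0.03 in the other controls, beside 0.27 and 0.30 in GAFCP libraries 1 and 2. Over all genes tested the median was -0.07 in control library 3 and at most 0.05 in the other controls. In GAFCP libraries 1 and 2 it was -0.07 and -0.06. Levels within the clamp loader kept one order, with Rfc2 the highest and Rfc4 the lowest of Rfc2 to Rfc5 in every library, the first 2.27 to 2.66 times the second in controls and 2.54 and 2.63 times with GAFCP. The ratio of Cdt1 to its inhibitor gene Gmnn was 1.21 to 1.40 in controls and 1.43 and 1.28 with GAFCP, an overlap between the groups.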
